A study of Homo sapiens with 33 samples.

Results

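Entry into S phase was examined in HepG2 cells, an established human line from a liver tumour, by comparing RNA of the sorted fraction named S1 with RNA of the sorted fraction named G1. The comparison used 4 of the 33 samples of the series, replicates 2 and 3 of each fraction, and differences were taken between libraries of the same replicate number. Of 19196 protein-coding genes, the 10540 with a mean of at least 5 over these 4 libraries were described. The unit is TPM, a transcript abundance corrected for gene length, rescaled so that the protein-coding genes of each library sum to 1000000. The series joins Repli-seq, which reads when DNA is copied, with RNA sequencing of cells sorted at stages of the cell cycle. The RNA samples were 2 libraries each of G1, S1, S2, S3, S4 and G2, and 3 of bulk cells, which were not used. For the 4 libraries compared here the labels name the cell line and nuclear RNA as the molecule, and no genotype, treatment or time. The Repli-seq protocol includes an immunoprecipitation of BrdU, and the labels do not say whether the cells of the RNA libraries carried it. The labels give neither the gates of the sort nor the cultures behind the numbers. A p-value here thus reflects variation between libraries that may be purely technical.

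A cell leaves G1 when cyclin D and cyclin E kinases inactivate RB, which frees E2F factors to transcribe genes for origin licensing, nucleotide supply and the replication machinery. In S phase, origins fire, the replication-dependent histone genes are expressed at high levels, and relicensing is blocked. Genes for mitotic entry and chromosome segregation follow later, and are held down in G1 by repressor complexes that act through a promoter element named the cell cycle genes homology region (CHR).

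The libraries held 7541260 and 8251796 reads in G1 and 7796026 and 9312043 in S1 (replicates 2 and 3), recovered from the steps of the TPM values. Protein-coding genes took 71.2% to 77.1% of these reads but 14.045% to 20.2% of the TPM. Libraries of the same number lay closer together than libraries of the same fraction. Across genes, log2 values of G1 and S1 correlated with a Pearson r of 0.96 in replicate 2 and 0.97 in replicate 3, against 0.90 between both G1 libraries and 0.91 between both S1 libraries, over genes that are not independent. Of 10 hepatocyte markers, 9 had a mean of at least 5, and their summed level was 46022 and 34486 in G1 and 53679 and 39074 in S1. Fibroblast markers summed to 24.5 to 37.0 with LUM at 0 in all 4 libraries, and endothelium markers to 7.40 to 15.3 with EMCN at 0. Leukocyte markers summed to 1344 to 2288, with PTPRC and TYROBP at 0 in all 4 libraries. That sum was carried by LYZ, the secreted lysozyme, at 1986 and 1257 in G1 and 2163 and 1386 in S1, with CD74, a chaperone of antigen presentation, at 81.2 and 68.0 in G1 and 109 and 90.0 in S1.

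No gene passed the test. With limma on log2(rescaled TPM + 1) over the 12 sorted libraries and Benjamini-Hochberg adjustment at 0.05, 0 of 10540 genes (0%) were higher in S1 and 0 (0%) were lower, and the lowest adjusted p was 0.9996. At an unadjusted p under 0.05 there were 105 genes, 4 higher and 101 lower in S1. With a term for the replicate number added to this limma fit there were 2021, and 853 with median-ratio scaling as well. On the 4 libraries of G1 and S1 alone, with that term, there were 2997. None of these fits called a gene. Among all 23 fits run beside the first, 22 called no gene. The exception was limma's voom on recovered reads with a term for the replicate number, which called 1, RPN2. Every value below is therefore a measured difference in 2 pairs of libraries, none of them a called change. Each SE below is from the fit with fraction as the only term. It includes the shift between replicate numbers and is not the spread of the 2 paired differences.

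Most genes had slightly lower values in S1. The median log2 difference over all genes tested was -0.21 in replicate 2 and -0.23 in replicate 3. Mitochondrially encoded mRNAs took 23.1% and 10.1% of the rescaled total in G1 and 30.2% and 20.6% in S1. With median-ratio scaling the median of all genes was 0.00, a value that this scaling nearly fixes by construction. The median was -0.07 where the total was rescaled without mitochondrially encoded and replication-dependent histone genes. Differences of genes and lists are therefore given relative to the all-gene median of the same replicate, on the log2 scale, unless said otherwise. Above that median in both replicates were 29.2% of the genes, and below it in both were also 29.2%. Differences of the 2 replicates correlated weakly across all genes (Pearson r = 0.17, n = 10540), and more strongly among genes with a mean of at least 400 recovered reads (r = 0.46, n = 3903). These points share their libraries, and genes are not replicates.

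Before that centring, 54 genes (0.512%) were at least 1.5-fold higher in S1 in both replicates and 235 (2.23%) at least 1.5-fold lower. With median-ratio scaling the split turned to 152 higher (1.44%) and 62 lower (0.588%). The members of both groups had few reads, with a median over genes of 74.8 recovered reads per library for the 54 and 83.3 for the 235, against 275 for all genes tested. In 23 of the 54 both S1 libraries lay above both G1 libraries, and in 184 of the 235 both lay below. Over all genes tested these shares were 1.76% above and 24.9% below.

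**Figure D1:**
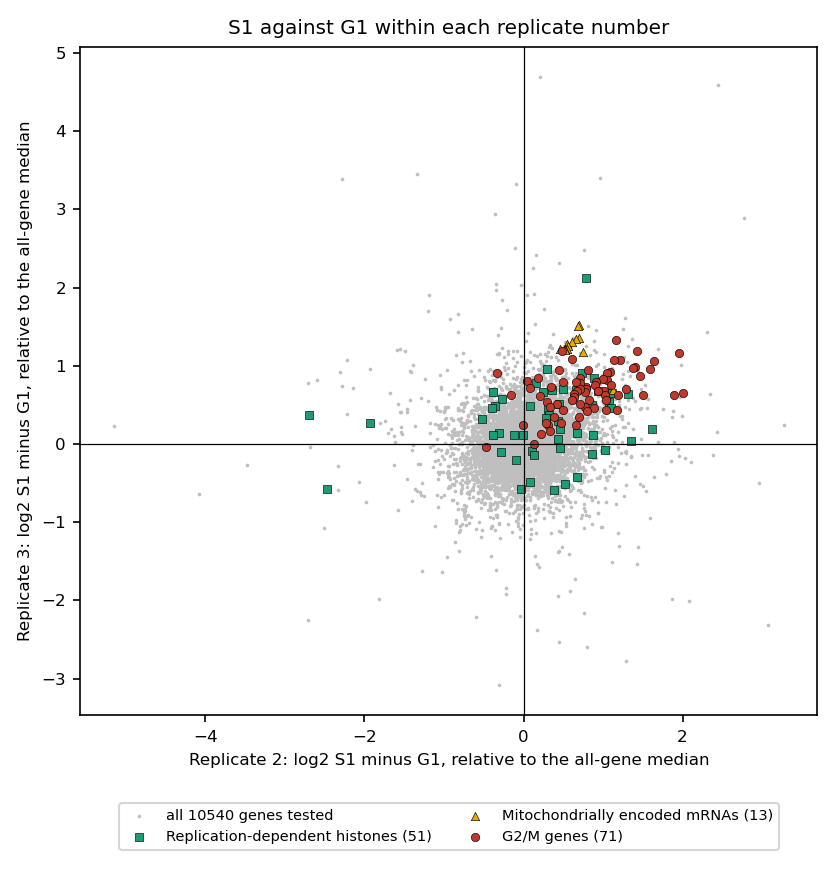
Difference between S1 and G1 for each of 10540 protein-coding genes (grey), in replicate 2 (horizontal axis) and replicate 3 (vertical axis), as log2 differences relative to the all-gene median of that replicate. The G2/M genes (red circles) lie in the upper right, 66 of 71 above the median in both replicates, as do all 13 mitochondrially encoded mRNAs (yellow triangles), while replication-dependent histone genes (green squares) are spread more widely.

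Genes of mitosis stood highest among the nuclear lists already in S1. Of 75 genes in the G2/M list, 71 were tested, 66 of them lay above the all-gene median in both replicates and 1 below in both, beside 29.2% each way over all genes. Their median relative difference was 0.77 in replicate 2 and 0.68 in replicate 3, where the median of all genes is 0 by construction. Before centring, 15 of the 71 were at least 1.5-fold higher in both replicates and 0 lower, and with median-ratio scaling 37 were. None passed the test. The list was chosen with earlier results of these libraries known, and its count is not independent evidence of its direction. These are bulk levels of a sorted fraction, in which more cells of a kind and more RNA per cell cannot be told apart. The median relative difference of the list was 0.21 without G1 replicate 2, 0.23 without S1 replicate 3, 1.24 without S1 replicate 2 and 1.33 without G1 replicate 3. Leaving out 1 library sets 1 replicate number against both, so these values, and such ranges below, also hold the shift between numbers.

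Among the kinases and cyclins that drive mitotic entry, CDK1, the catalytic subunit bound by cyclins A and B (chromosome 10, 60778331 to 60794852, GRCh38.p14), had 10.04 and 75.6 rescaled TPM in G1 and 27.8 and 125 in S1 (replicates 2 and 3). Each S1 library was above the G1 library of its number, but the groups overlapped, since replicate 3 was higher than replicate 2 in both fractions. Relative to all genes CDK1 was higher by 1.60 and 0.95, and the log2 difference before centring was 1.05 ± 1.07 (SE, limma, adjusted p = 1.00). The relative difference of the fit was 1.28, and 0.08 to 2.49 with any 1 of the 4 libraries left out. CCNA2, the cyclin of S phase and mitotic entry, had 20.1 and 66.2 in G1 and 28.7 and 97.4 in S1, which was higher by 0.71 and 0.78. CCNB1, the mitotic cyclin, had 51.5 and 99.7 in G1 and 56.7 and 141 in S1, higher by 0.35 and 0.73. PLK1, a kinase of mitotic entry and spindle assembly, had 50.5 and 66.3 in G1 and 46.0 and 93.5 in S1, with relative differences of 0.08 and 0.72. CCNA2, CCNB1 and PLK1 also overlapped between the fractions.

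The members ranked highest by the smaller of both replicates' differences were TTK, KIF14, NUF2 and NCAPG. NUF2, a subunit of the kinetochore complex that holds microtubules (chromosome 1, 163321954 to 163355759), had 7.45 and 40.8 rescaled TPM in G1 and 27.2 and 78.5 in S1, from 30 and 156 recovered reads in G1 and 116 and 357 in S1. Relative to all genes it was higher by 1.95 and 1.16, and before centring by 1.33 ± 0.81 (SE, limma, adjusted p = 1.00). TTK, the kinase that starts the spindle checkpoint, had 4.38 and 23.2 in G1 and 11.5 and 46.0 in S1. KIF14, a kinesin of cytokinesis, had 3.78 and 19.4 in G1 and 8.21 and 42.9 in S1. NCAPG, a condensin subunit, had 27.1 and 93.6 in G1 and 52.4 and 169 in S1. In each of these 4 genes S1 was above G1 within both numbers while the groups overlapped, and the other genes of the list at least 1.5-fold higher in both replicates were DEPDC1, HJURP, CDC25C, KIF18A, CDK1, FOXM1, RACGAP1, KIF23, AURKB, BIRC5 and GTSE1.

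MKI67 and TOP2A, common markers of proliferation, differed less than these. MKI67, whose protein coats mitotic chromosomes, had 142 and 143 rescaled TPM in G1 and 122 and 144 in S1, with relative differences of -0.01 and 0.25. TOP2A, the topoisomerase that untangles sister chromatids, had 128 and 208 in G1 and 127 and 272 in S1, higher by 0.20 and 0.62. Both genes had over 900 recovered reads in every library. The member below the median in both replicates was CENPF, by 0.47 and 0.03.

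Promoters of G2/M genes are shown because the members shared a direction and because CHR and CCAAT elements are known from such promoters. The sequences are from RefSeq (GRCh38.p14), 250 bases before to 50 after the start, 5′ to 3′ along the gene, with each CHR match (TTTGAA or its reverse complement) and each CCAAT match (or its reverse complement) in capitals.
KIF14 (chr1:200620702-200621001, minus strand): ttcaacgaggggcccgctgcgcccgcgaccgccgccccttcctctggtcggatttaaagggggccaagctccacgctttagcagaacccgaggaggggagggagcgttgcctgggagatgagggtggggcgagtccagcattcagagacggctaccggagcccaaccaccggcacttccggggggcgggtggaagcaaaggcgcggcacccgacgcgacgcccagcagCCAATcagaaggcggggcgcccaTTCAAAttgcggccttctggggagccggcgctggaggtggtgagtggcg
KIF23 (chr15:69414099-69414398, plus strand): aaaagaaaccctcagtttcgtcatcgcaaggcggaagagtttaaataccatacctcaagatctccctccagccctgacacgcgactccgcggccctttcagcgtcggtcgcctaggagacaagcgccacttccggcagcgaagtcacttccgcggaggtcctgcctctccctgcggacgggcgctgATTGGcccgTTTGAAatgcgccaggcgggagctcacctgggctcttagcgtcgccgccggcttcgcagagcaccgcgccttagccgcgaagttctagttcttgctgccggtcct
GTSE1 (chr22:46296620-46296919, plus strand): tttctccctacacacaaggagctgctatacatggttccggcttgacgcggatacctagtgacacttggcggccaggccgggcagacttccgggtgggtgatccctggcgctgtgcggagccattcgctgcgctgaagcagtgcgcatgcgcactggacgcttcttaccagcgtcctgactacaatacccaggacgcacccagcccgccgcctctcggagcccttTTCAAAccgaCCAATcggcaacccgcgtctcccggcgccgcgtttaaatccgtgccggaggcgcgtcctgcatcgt
These 3 are examples from the 15 members at least 1.5-fold higher in both replicates, taken because their entries hold both elements. Entries of NUF2 and NCAPG hold a CHR and no CCAAT match, and those of AURKB a CCAAT and no CHR match. Each of the 3 holds 1 CHR and 1 CCAAT match, whose first bases are 23 bases apart in KIF14, 9 in KIF23 and 10 in GTSE1.

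Of 71 G2/M genes tested, 59 had a promoter entry. A CHR match stood in an entry of 40 of the 59 (67.8%), beside 13.6% of the 8735 genes tested that had an entry. A CCAAT match stood in 48 (81.4%, beside 44.2%), and 33 held both in the same entry (55.9%, beside 5.76%). An E2F-type match was counted where an entry held TTGGCGC on either strand, the variant spelled TTCCCGC, the variant with TTCGCGC, or the form written TTGCCGC. It stood in 16 (27.1%, beside 25.8%). The licensing list held the opposite pair of shares, with an E2F-type match in 14 of 23 genes (60.9%) and a CHR match in 1 (4.35%). E2F-type matches also stood in 16 of 22 polymerase and clamp genes (72.7%) and 18 of 27 recombination genes (66.7%). Of the genes at least 1.5-fold higher in both replicates, 18 of 42 held a CHR match (42.9%), and of those at least 1.5-fold lower 11 of 200 (5.50%). The first of these sets includes members of the G2/M list. A reverse CCAAT match that runs on into CGC also counts as an E2F-type match, so these can share bases. A match is a description of sequence only, and genes with several entries count once if any entry holds the match.

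Genes that promote and genes that restrain the G1 to S step were pooled in the same list, which showed no shared direction. Of 29 genes in the list of G1 cyclins, E2F factors, RB proteins and their inhibitors, 26 were tested. Above the median in both replicates were 10 (38.5%) and below in both 8 (30.8%), beside 29.2% each way over all genes. The median relative differences were -0.04 and 0.06. CCNE2, a cyclin E, had 6.65 and 35.6 rescaled TPM in G1 and 12.4 and 33.5 in S1, with relative differences of 1.02 and 0.14. CCNE1, the other cyclin E, had 26.5 and 104 in G1 and 32.7 and 103 in S1, with relative differences of 0.51 and 0.21. E2F1, an activating E2F factor, had 112 and 354 in G1 and 149 and 259 in S1, which was 0.62 above the median in replicate 2 and 0.22 below it in replicate 3 (relative difference -0.22).

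CDC25A, the phosphatase that activates CDK2, had 27.2 and 82.7 in G1 and 31.2 and 81.5 in S1, with relative differences of 0.40 and 0.21. CCND1, cyclin D1, had 144 in both G1 libraries and 106 and 137 in S1, and its relative differences had opposite signs, -0.22 and 0.16. CDKN1A, the p21 inhibitor, had 44.6 and 184 in G1 and 44.1 and 205 in S1. MYC, a transcription factor of growth, was the member farthest below the median in both replicates. It had 169 and 172 in G1 and 116 and 96.3 in S1, so both S1 libraries were below both G1 libraries, as in 24.9% of all genes. Its relative differences were -0.33 and -0.60, and before centring it was lower by 0.68 on the log2 scale, with an SE of 0.34 (limma, adjusted p = 1.00). The relative difference of the fit was -0.46, and -0.77 to -0.15 with any 1 library left out.

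At the other end of the same list were E2F7 and E2F8, the atypical E2F factors that repress E2F targets in S phase, which were chosen after their values were seen. E2F7 had 8.37 and 45.1 rescaled TPM in G1 and 18.7 and 65.2 in S1. E2F8 had 13.5 and 70.4 in G1 and 24.0 and 93.0 in S1. Both were higher in S1 within each number, and both overlapped between the fractions.

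Origin licensing and firing genes were split. All 29 were tested, 12 above the median in both replicates (41.4%) and 6 below in both (20.7%), beside 29.2% each way over all genes. The list's median relative difference was 0.28 in replicate 2 but -0.02 in replicate 3. Without 1 library it ranged from -0.42 to 0.69. CDC6, which loads the MCM helicase onto origins, had 77.1 and 287 rescaled TPM in G1 and 96.3 and 258 in S1, with relative differences of 0.53 and 0.08. CDT1, its partner in loading, had 50.5 and 150 in G1 and 68.0 and 102 in S1, and its relative differences had opposite signs, 0.63 and -0.33.

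The 6 subunits of the MCM helicase behaved alike in replicate 3. There the relative differences of MCM2, MCM3, MCM4, MCM5, MCM6 and MCM7 were -0.26, -0.17, -0.14, -0.49, -0.42 and -0.22, all below the median. In replicate 2 they were -0.11, 0.04, 0.37, -0.03, 0.40 and 0.09, so only MCM2 and MCM5 were below in both. MCM5 had 89.6 and 218 rescaled TPM in G1 and 75.7 and 131 in S1. MCM6 had 31.5 and 124 in G1 and 36.0 and 78.7 in S1. ORC5, a subunit of the origin recognition complex, was the only member of the list at least 1.5-fold lower in both replicates, with 26.0 and 63.3 in G1 and 16.3 and 39.3 in S1, and with median-ratio scaling it was not.

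Replication fork and nucleotide genes lay slightly above the median. Of 27 genes of the polymerases, the PCNA clamp and its loader, 18 were above the median in both replicates (66.7%) and 3 below in both (11.1%). Over all genes these shares were 29.2% each way. The list's median relative differences were 0.28 and 0.07. PCNA, the sliding clamp, had 245 and 820 rescaled TPM in G1 and 285 and 812 in S1, with relative differences of 0.43 and 0.21. Of 14 deoxynucleotide synthesis genes, 8 were above in both (57.1%) and 2 below in both (14.3%), with medians of 0.17 and 0.15. RRM2, the ribonucleotide reductase subunit made in S phase, was highest among them, with 46.5 and 151 in G1 and 77.3 and 198 in S1, relative differences of 0.94 and 0.62, and overlapping groups. With any 1 library left out, its relative difference of the fit was 0.14 to 1.44. TYMS, thymidylate synthase, had 101 and 264 in G1 and 107 and 256 in S1, with relative differences of 0.29 and 0.18.

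Genes of homologous recombination and the Fanconi pathway, which repair broken and stalled forks, were above the median in both replicates in 23 of 29 (79.3%). Below in both were 0, beside 29.2% each way over all genes, and the list's medians were 0.35 and 0.17. FANCA, a core subunit of the Fanconi ligase, had 165 and 230 in G1 and 165 and 233 in S1, with relative differences of 0.22 and 0.25. Of 15 replication checkpoint genes, 10 were above in both (66.7%) and 2 below in both (13.3%). RAD17, the loader of the checkpoint clamp, was at least 1.5-fold lower in both, with 14.7 and 18.2 in G1 and 4.55 and 9.42 in S1. Both of its S1 libraries lay below both G1 libraries, as in 24.9% of all genes.

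**Figure D2:**
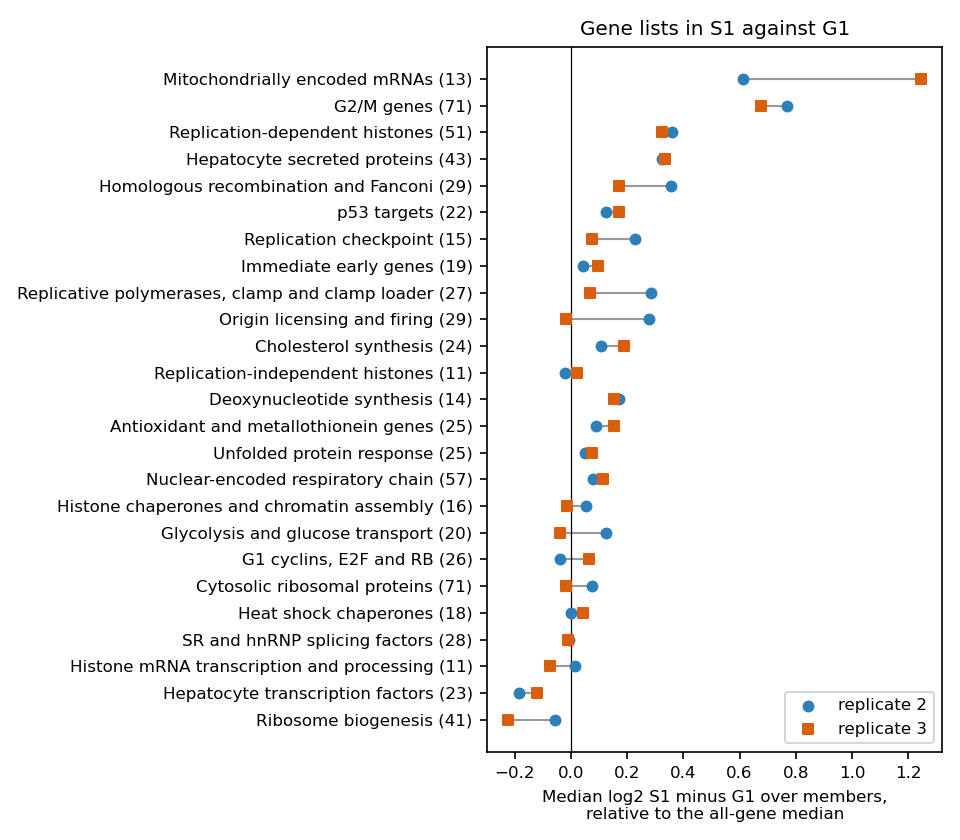
Median difference between S1 and G1 over the tested members of each list of at least 10 (number in brackets), relative to the all-gene median, in replicate 2 (blue circles) and replicate 3 (orange squares), on a log2 axis. The G2/M list stands at 0.77 and 0.68 and the mitochondrially encoded mRNAs at 0.61 and 1.25, while most lists lie within 0.3 of the all-gene median in both replicates.

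Replication-dependent histone genes, which supply the core and linker histones of new chromatin and lack poly(A) tails, were moderately higher. Of 62 genes, 51 were tested, 27 above the median in both replicates (52.9%) and 4 below in both (7.84%), beside 29.2% each way over all genes. The median relative differences were 0.36 and 0.33. Without 1 library the list's median ranged from 0.10 to 0.50. As a share of the rescaled total these genes took 0.467% and 0.831% in G1 and 0.491% and 0.876% in S1. H4C3, which encodes histone H4, had 210 and 282 rescaled TPM in G1 and 335 and 261 in S1, with relative differences of 0.88 and 0.12. H3C2, for histone H3, had 247 and 631 in G1 and 259 and 679 in S1, and the linker histone gene H1-2 had 235 and 443 in G1 and 254 and 489 in S1.

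H1-4, the linker histone gene with the highest level, had 799 and 1613 in G1 and 744 and 1289 in S1, with relative differences of 0.11 and -0.09. H2AC12 was the histone gene at least 1.5-fold higher in both replicates, with 38.4 and 25.0 in G1 and 62.1 and 38.8 in S1, from 13 to 36 recovered reads per library. H1-1 was at least 1.5-fold lower in both, with 12.2 and 9.30 in G1 and 1.04 and 4.89 in S1, from 1 to 11 recovered reads per library. Histone genes have near-identical copies, among which reads may have been divided. Factors of histone mRNA synthesis and processing lay near the median, with 2 of 11 above in both replicates (18.2%) and 4 below in both (36.4%), beside 29.2% each way over all genes. SLBP, which binds the stem-loop at the end of histone mRNA, had 89.6 and 249 in G1 and 61.9 and 178 in S1, with relative differences of -0.31 and -0.25. Of 16 histone chaperone genes 6 were above in both (37.5%) and 4 below in both (25.0%). NAP1L4, a chaperone of H2A and H2B, was at least 1.5-fold lower in both, with 42.9 and 94.5 in G1 and 25.2 and 34.8 in S1. With median-ratio scaling NAP1L4 was not.

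Mitochondrially encoded mRNAs, for subunits of the respiratory chain and ATP synthase, were above the median in both replicates in all 13 genes, with median relative differences of 0.61 and 1.25. MT-CO1, a catalytic subunit of cytochrome oxidase, had 47259 and 21841 rescaled TPM in G1 and 58457 and 43295 in S1. MT-CO3 had 28824 and 13859 in G1 and 35604 and 27284 in S1, and MT-ND4, a complex I subunit, had 25783 and 9532 in G1 and 35261 and 20694 in S1. In each of the 3 genes replicate 3 of S1 was below replicate 2 of G1, so the groups overlapped. The list's median was 0.16 with quantile normalization and 0.14 without G1 replicate 3, 0.47 without S1 replicate 2, 1.45 without S1 replicate 3 and 1.69 without G1 replicate 2. The nuclear genes of the same chain lay near the median, with 22 of 57 above in both replicates (38.6%) and 10 below in both (17.5%). Over all genes these shares were 29.2% each way. The medians of this nuclear list were 0.08 and 0.11. UQCR11, a small subunit of complex III, was at least 1.5-fold lower in both, with 35.6 and 40.3 in G1 and 15.9 and 20.4 in S1. Both of its S1 libraries lay below both G1 libraries, as in 24.9% of all genes.

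Genes for proteins that hepatocytes secrete lay above the median in both replicates in 35 of 43 tested (81.4%) and below in both in 4 (9.30%). Over all genes these shares were 29.2% each way. The list's median relative differences were 0.33 and 0.33. The list's median was 0.15 with quantile normalization, and it turned to -0.05 without G1 replicate 3 and -0.11 without S1 replicate 2. ALB, serum albumin, had 21711 and 15564 rescaled TPM in G1 and 26913 and 19438 in S1, with relative differences of 0.52 and 0.55, and was lower with quantile normalization (-0.23). AFP, the fetal albumin counterpart, had 12336 and 7857 in G1 and 13129 and 8301 in S1, with relative differences of 0.30 and 0.31, and was lower with quantile normalization (-0.27). APOA1, the main protein of high-density lipoprotein, had 8229 and 8170.0 in G1 and 9513 and 7764 in S1, with relative differences of 0.42 and 0.16, and was lower with quantile normalization (-0.43). All 3 genes overlapped between the fractions.

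At least 1.5-fold lower in both replicates were C4A, a complement protein, and A1BG, a plasma protein. C4A had 63.4 and 24.7 in G1 and 33.0 and 13.9 in S1, and has a near-identical copy. A1BG had 13.99 and 9.01 in G1 and 7.89 and 4.81 in S1. With median-ratio scaling neither was at least 1.5-fold lower in both replicates. The transcription factors of hepatocytes leaned below the median, with 2 of 23 above in both replicates (8.70%) and 13 below in both (56.5%). Over all genes these shares were 29.2% each way. The medians of these factors were -0.19 and -0.12. HNF4A, the nuclear receptor that maintains hepatocyte identity, had 438 and 315 in G1 and 320 and 228 in S1, with relative differences of -0.24 in each replicate. The difference between these lists was not tested.

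Genes of ribosome biogenesis lay below the median in both replicates in 23 of 41 (56.1%) and above in both in 3 (7.32%). Over all genes these shares were 29.2% each way. The list's medians were -0.06 and -0.22. NOP56, a core protein of box C/D snoRNPs, had 1023 and 2069 rescaled TPM in G1 and 775 and 1510 in S1, with relative differences of -0.19 and -0.22. NCL, nucleolin, had 622 and 739 in G1 and 512 and 539 in S1, with relative differences of -0.07 and -0.22. For NCL, and for NOP2 below, both S1 libraries lay below both G1 libraries, as in 24.9% of all genes. NOP2, an rRNA methyltransferase, had 17.5 and 28.9 in G1 and 8.07 and 10.7 in S1, with relative differences of -0.81 and -1.12, no overlap and 48 to 154 recovered reads per library. NOP10, a protein of H/ACA snoRNPs, had 2.65 and 14.5 in G1 and 0.500 and 6.57 in S1, from 1 to 26 recovered reads. Both NOP2 and NOP10 were also at least 1.5-fold lower in both replicates with median-ratio scaling.

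Ribosomal protein genes showed no such lean, with 19 of 71 above in both replicates (26.8%) and 17 below in both (23.9%). RPL17 was the member at least 1.5-fold lower in both, with 56.6 and 107 rescaled TPM in G1 and 36.3 and 50.1 in S1, and with median-ratio scaling it was not. Of the stress and growth lists, p53 targets had 14 of 22 above in both and 2 below in both, and cholesterol synthesis genes 15 of 24 and 2. The unfolded protein response had 12 of 25 above in both and 5 below in both, immediate early genes 7 of 19 and 3, heat shock chaperones 7 of 18 and 5, and antioxidant genes 9 of 25 and 5. Glycolysis had 6 of 20 and 4, SR and hnRNP splicing factors 6 of 28 and 7, and replication-independent histones 3 of 11 and 1. No member of these 9 lists was at least 1.5-fold higher or lower in both replicates before centring.

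The single genes with the largest differences were mostly rare transcripts. The 12 ranked highest by the smaller of both replicates' differences were NPPA, ACTA1, SLC25A41, TMED6, RPN2, EEF1B2, DKK4, TTK, KIF14, NUF2, NEIL3 and NCAPG, where the ranking passed over open reading frame names such as C17orf114. NPPA, the atrial natriuretic peptide, had 0 and 1.57 rescaled TPM in G1 and 4.93 and 15.2 in S1, which came from 0 and 2 recovered reads in G1 and 7 and 23 in S1. ACTA1, skeletal muscle actin, had 0.702 and 5.54 in G1 and 6.29 and 13.97 in S1, from 2 and 15 reads in G1 and 19 and 45 in S1. SLC25A41 had 3.55 and 3.20 in G1 and 9.08 and 8.07 in S1, from 6 to 19 reads. Both of its S1 libraries lay above both G1 libraries, as in 1.76% of all genes. TMED6 rested on 5 to 34 reads per library and DKK4, a secreted WNT inhibitor, on 1 to 20.

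RPN2 and EEF1B2 were better covered. RPN2, a subunit of the oligosaccharyltransferase of the endoplasmic reticulum (chromosome 20, 37179330 to 37241619), had 130 and 64.9 rescaled TPM in G1 and 267 and 155 in S1, from 247 to 1132 recovered reads. Both S1 libraries were above both G1 libraries, as in 1.76% of all genes. Its relative differences were 1.25 and 1.47, and before centring it was higher by 1.14 ± 0.48 (SE, limma, adjusted p = 1.00). With any 1 library left out, its relative difference of the fit was 0.69 to 2.06. In the voom fit on recovered reads with a replicate term its adjusted p was 0.0151, and its adjusted p was 0.0591 to 0.212 over the other fits with that term and 0.747 to 1.00 over the fits without it. EEF1B2, a translation elongation factor subunit, had 45.8 and 176 in G1 and 99.2 and 359 in S1, from 105 to 930 reads, with relative differences of 1.31 and 1.25 and overlapping groups. NEIL3, a DNA glycosylase of proliferating cells, had 9.17 and 43.4 in G1 and 20.0 and 80.9 in S1.

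The 12 ranked lowest were CDK7, SPEF1, KCNK7, RAB40AL, KRTDAP, ADM5, SRRM5, DHRS4, ARTN, NOP10, CDH26 and HUS1B, and none of these had over 64 recovered reads in any library. The ranking passed over C1orf54 and C8orf33, which bear open reading frame names. CDK7, the kinase that activates other CDKs and phosphorylates RNA polymerase II, had 6.57 and 13.1 rescaled TPM in G1 and 0 and 1.53 in S1, from 19 and 36 reads in G1 and 0 and 5 in S1. Both of its S1 libraries lay below both G1 libraries, as in 24.9% of all genes. Before centring it was lower by 2.70 on the log2 scale with an SE of 0.75 (limma, adjusted p = 1.00). DHRS4, a carbonyl reductase, had 24.8 and 24.9 in G1 and 11.3 and 9.94 in S1, and ARTN, a neurotrophic factor, had 8.49 and 10.3 in G1 and 3.56 and 3.90 in S1. RAB40AL and DHRS4 have near-identical copies, among which reads may have been divided.

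Of the genes at least 1.5-fold lower in both replicates, the 5 with the most reads were chosen after their values were seen. MYBBP1A, a nucleolar MYB-binding protein, had 225 and 213 rescaled TPM in G1 and 150 and 133 in S1, with 1068 to 1608 recovered reads. ERCC2, a helicase of the TFIIH complex, had 121 and 126 in G1 and 74.2 and 78.4 in S1. POLG, the mitochondrial DNA polymerase, had 92.6 and 111 in G1 and 59.9 and 65.0 in S1. DDX54, an RNA helicase, had 117 and 161 in G1 and 75.7 and 94.2 in S1, and GTPBP1 had 92.6 and 73.3 in G1 and 56.2 and 43.1 in S1. In all 5 both S1 libraries were below both G1 libraries, beside 24.9% of all genes tested, and their relative differences of the fit were -0.41 to -0.51.

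**Figure D3:**
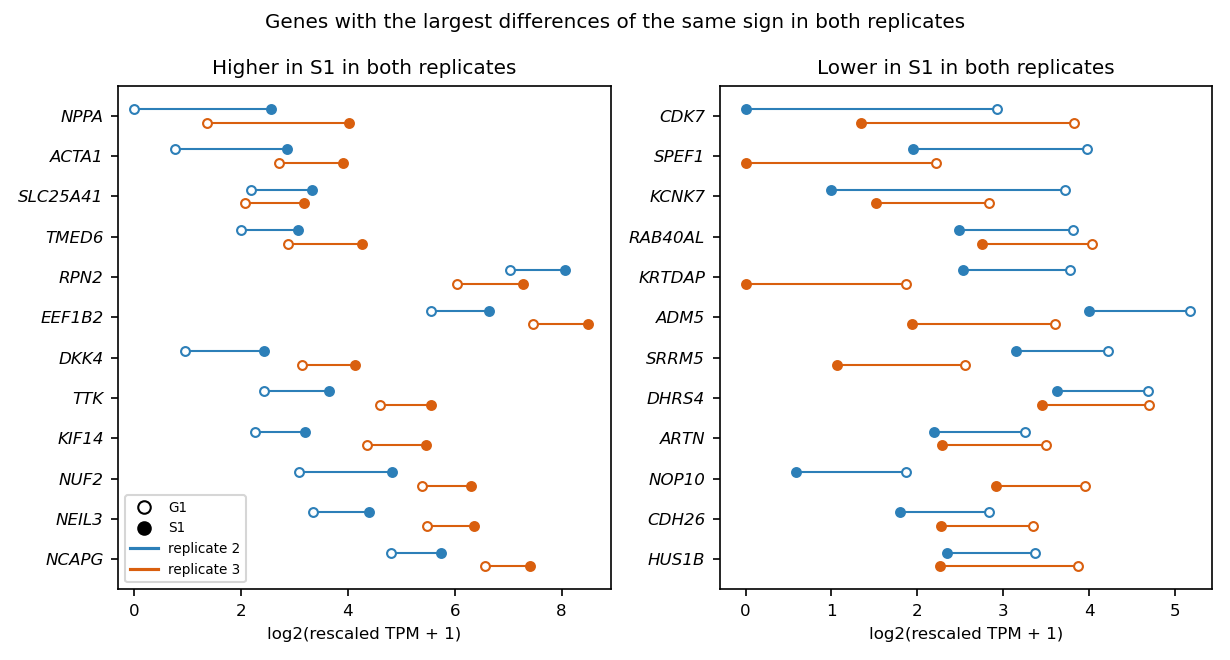
Levels of the 12 highest-ranked (left) and 12 lowest-ranked (right) genes in G1 (open circles) and S1 (filled circles), joined within replicate 2 (blue) and replicate 3 (orange), as log2(rescaled TPM + 1). Lines of both colours point the same way for each gene, and the lowest-ranked genes lie at low levels.

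Values in the later fractions place S1 between G1 and the rest of S phase for CDK1 and for the median of the G2/M list. Not every mitotic gene followed. In rescaled TPM, without centring, MKI67, PLK1 and TOP2A were lower in S1 than in G1 in replicate 2. For TOP2A that log2 difference was only -0.01. Relative to the all-gene median, PLK1 and TOP2A were higher in that replicate, by 0.08 and 0.20, and MKI67 was at -0.01. CDK1 had 27.8 and 125 rescaled TPM in S1, 60.4 and 168 in S2, 110 and 189 in S3, 110 and 277 in S4, and 59.7 and 264 in G2. The median level of the G2/M list was 19.9 and 56.6 in G1, 28.7 and 78.5 in S1, 58.8 and 128 in S2, and 128 and 157 in S3. RRM2 had 77.3 and 198 in S1 and 149 and 246 in S2. RPN2 had 356 and 242 in S2, 269.7 in both S3 libraries, 253 and 108 in S4, and 400.2 and 263 in G2, so its S4 library of replicate 3 was below S1. EEF1B2 had 263 and 217 in S2, 137 and 59.0 in S3, 55.1 and 178 in S4, and 65.6 and 68.2 in G2.

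Other genes had their highest or lowest level of all fractions in S1. MYC had its lowest level of the 6 fractions in S1 in both replicates, and was at 119 and 183 in S2 and 149 and 263 in S3. MT-CO1 and ALB had their highest level in S1 in both replicates, MT-CO1 with 55185 and 25515 in S2 and ALB with 25944 and 14624. CCNE2 was highest in S1 in replicate 2 and in G1 in replicate 3, and had 11.3 and 17.2 in S2. MCM5 had 45.7 and 74.4 in S3 and 90.1 and 180 in G2. These later values are given as levels, and no difference between fractions other than S1 and G1 was tested.

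**Figure D4:**
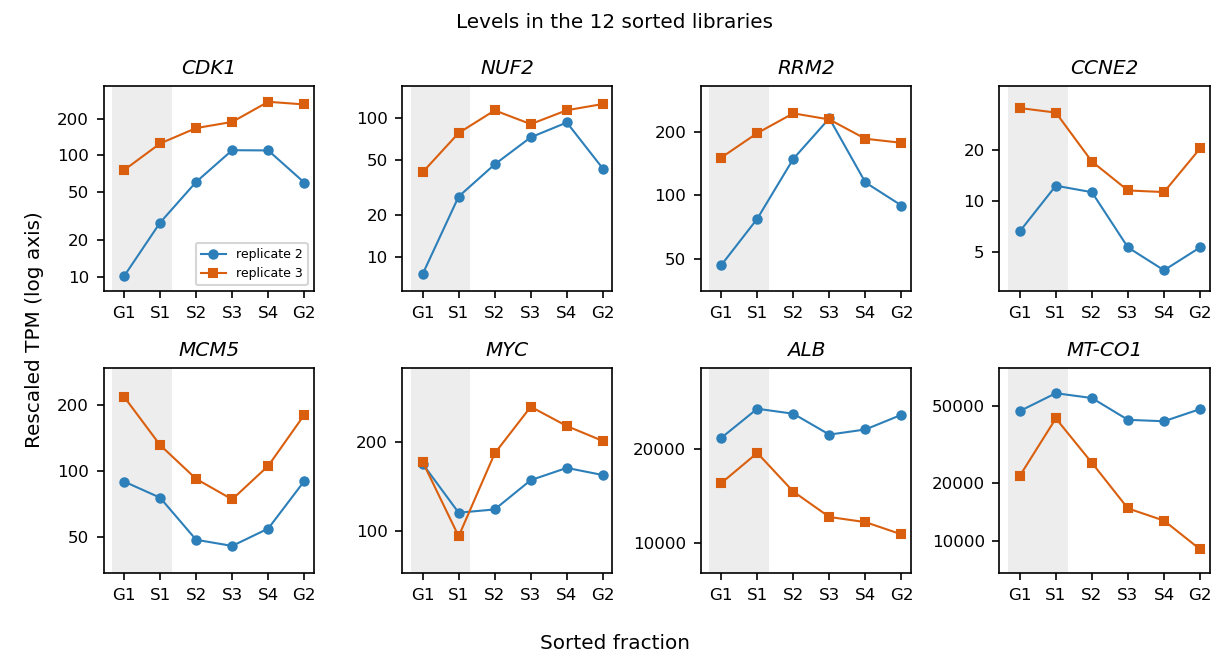
Rescaled TPM of 8 genes (log axis) across the 6 sorted fractions in replicate 2 (blue circles) and replicate 3 (orange squares), with G1 and S1 on grey. CDK1, NUF2 and RRM2 are higher in S1 than in G1 in both replicates and higher again in S2, MYC is lowest in S1, and ALB and MT-CO1 are highest in S1.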

How the data were processed

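Per the labels' protocols, RNA of sorted HepG2 cells went into a stranded total RNA kit for very low inputs. HISAT2, BWA, SAMtools, Trimmomatic and cutadapt appear in the submitters' processing notes beside hg38, without version or role. The gene quantifier is not named there. The authors deposited 1 log2 value, log2(TPM + 1), for each of 78932 gene identifiers. Values were back-transformed, and 61481 identifiers were matched to symbols and 19196 to protein-coding genes of RefSeq (GRCh38.p14).

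TPM of protein-coding genes was rescaled to 1000000 per library, and genes with a mean of at least 5 over the 4 libraries were kept. Whole reads were recovered for 64649 of 64649 genes above 0 from the steps of each gene's values, within 0.005 of a whole number, since values of a gene are multiples of what 1 read is worth. The 12 sorted libraries held 6132183 to 18496159 such reads, and at low counts they limit the precision. A unit may be a read or a pair of reads, which the labels do not say.

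The test was limma 3.58.1 in R 4.3.3 with an intensity trend on log2(rescaled TPM + 1), over the 12 sorted libraries, with fraction as the only term. It was tested on simulated data, where it found none of the smaller changes put in and missed many of the larger ones. A lack of calls is thus weak evidence that a gene did not change. The replicate number was left out because no label ties a number to a culture or day. The shift between numbers thus stays in the error of this test. A pseudocount of 1 understates changes of low genes. Named genes were 30 fixed genes, the 12 largest differences in each direction of those at least 1.5-fold in both replicates (no clone, locus or open reading frame names), and in each list described the highest members and those at least 1.5-fold in both. A gene that this rule would name is not reported here. The members and lists were chosen with earlier results of these data known. Both libraries of a fraction differed beyond sampling noise, with a chi-square per degree of freedom of 51.4 in G1 and 47.2 in S1. Alternatives changed the pseudocount, filter, scaling, trend, weights, replicate term and libraries. Bulk libraries and Repli-seq were not analysed here.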

Additional observations from a re-analysis of the deposited data

How the results depend on the processing

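Calls did not appear under other pseudocounts, filters, scalings, weights or library sets. The replicate block with voom on recovered reads called 1 gene (RPN2), and the other limma fits with a replicate block called 0. Over 12 libraries the lowest adjusted p was 0.197, with 2021 genes at an unadjusted p under 0.05. On the 4 libraries of G1 and S1 alone it was 0.0591, with 2997 such genes. With median-ratio scaling over 12 libraries it was 0.212, with 853 such genes. Same-numbered libraries deviated together, with correlations of the shift from replicate 2 to 3 between fractions of 0.58 to 0.71 (G1 with S1 0.69), but the comparison has 2 pairs only. The design is balanced, so the block on log2 values changed no difference, only its error.

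The count of genes at least 1.5-fold higher in both replicates (54) was 27 with a pseudocount of 5, 166 with a mean of at least 1, 25 with a mean of at least 20, 280 with no filter, 152 with median-ratio scaling with or without the replicate block, 142 with quantile normalization, 111 without mitochondrial and histone genes in the total, 17 with deposited TPM and 115 with voom with or without the block. Filters on recovered reads, chosen after seeing the data, gave 32 (mean of at least 50) and 11 (at least 200). The count lower (235) was 106 with a pseudocount of 5, 107 with a mean of at least 20, 452 with no filter, 62 with median-ratio scaling, 79 with quantile normalization, 94 without mitochondrial and histone genes, 118 with voom (62 and 118 also with the block), and 149 and 43 with at least 50 and 200 reads. No count in both replicates exists without 1 library.

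Medians of lists relative to all genes moved as follows. G2/M genes (0.73) were at 0.65 with a pseudocount of 5 and 0.63 with deposited TPM. Replication-dependent histones (0.33) were at 0.29 with a pseudocount of 5, 0.28 with no filter, 0.28 with deposited TPM, and 0.37 and 0.38 with 50 and 200 reads. Secreted proteins (0.33) differed between near-equal replicates by so little that small moves count: 0.33 (pseudocount 0.1, mean of at least 20, median-ratio scaling, voom, both also with the block, and without mitochondrial and histone genes), 0.30 (pseudocount 5), 0.31 (mean of at least 1), 0.26 (no filter), 0.15 (quantile), 0.27 (deposited TPM) and 0.34 (200 reads). Mitochondrial mRNAs (0.92) were at 0.16 with quantile normalization. Without 1 library the ranges were 0.21 to 1.33 for G2/M, 0.10 to 0.50 for histones, -0.11 to 0.66 for secreted proteins, 0.14 to 1.69 for mitochondrial mRNAs and -0.42 to 0.69 for licensing genes.

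Of 82 genes named with values, 5 changed sign with all libraries kept. Quantile normalization gave AFP -0.27, ALB -0.23, APOA1 -0.43 and H1-4 -0.22. H1-4 was also at -0.0127 (pseudocount 5), -0.0402 (no filter) and -0.0396 (deposited TPM). MCM6 was at 0.0038 (quantile), 0.0003 (voom) and 0.0006 (200 reads). Leaving out 1 library sets 1 number against both, and 32 genes then changed sign in at least 1 of 4 fits, with these ranges: MCM6 (-0.78 to 0.78), CDC25A (-0.27 to 0.91), MCM2 (-0.46 to 0.13), SLBP (-0.85 to 0.29), AFP (-0.20 to 0.84), H3C2 (-0.20 to 0.82), H1-4 (-0.29 to 0.34), C4A (-1.47 to 0.24), MCM3 (-0.50 to 0.40), CDKN1A (-0.62 to 1.21), ORC5 (-0.86 to 0.0091), MCM7 (-0.37 to 0.28), CCNE2 (-0.34 to 1.53), MCM4 (-0.43 to 0.69), APOA1 (-0.0373 to 0.62), CCND1 (-0.20 to 0.18), E2F8 (-0.13 to 1.78), MKI67 (-0.0596 to 0.32), LYZ (-0.16 to 0.89), NOP10 (-1.92 to 0.05), CDT1 (-0.42 to 0.75), CDC6 (-0.43 to 1.07), TYMS (-0.24 to 0.75), E2F1 (-0.42 to 0.84), PCNA (-0.34 to 1.01), HNF4A (-0.66 to 0.20), NOP56 (-0.51 to 0.12), KRTDAP (-2.78 to 0.11), CCNE1 (-0.41 to 1.15), SRRM5 (-2.28 to 0.17), ADM5 (-2.41 to 0.0181) and MCM5 (-0.69 to 0.19). The cause of these moves was not tested.

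Depth limits genes with few reads, such as the lowest-ranked ones.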

Other observations

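Median differences of the autosomes and chromosome X were small, and those of chromosomes 3, 9 and 12 had opposite signs in the replicates. Chromosome Y had 0.24 and 0.006 over 9 genes, and the mitochondrial genome 0.61 and 1.25 over 13. Median relative differences were -0.06 and -0.04 over 796 genes of chromosome 19, -0.04 and -0.06 over 253 of chromosome 22, -0.05 and -0.05 over 535 of chromosome 16 and -0.05 and -0.02 over 96 of chromosome 21, against 0.06 and 0.07 over 147 genes of chromosome 18, 0.06 and 0.05 over 324 of chromosome X, 0.03 and 0.05 over 346 of chromosome 4 and 0.04 and 0.03 over 497 of chromosome 6 (replicates 2 and 3, log2). Of the genes on chromosome 22, 21.7% lay above the all-gene median in both replicates and 37.2% below in both, and on chromosome X 34.6% and 21.3%, beside 29.2% each way over all genes. These chromosomes were chosen after their values were seen, genes of a chromosome are not replicates, and the differences have no test.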
